A study of Mus musculus with 48 samples.

Results

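The comparison was made between liver RNA that came off streptavidin beads with NudC and liver RNA recovered without it, and it rested on 4 of the 48 libraries of the series. All 4 libraries came from liver of C57BL/6 mice, aged 12 months by the study's methods, and held polyadenylated RNA. The groups were 2 NudC- enrichment libraries (mock-treated) and 2 NudC+ enrichment libraries (NudC-treated), matched by the replicate number of their titles. The 4 input libraries of the same replicate numbers, taken before the beads, gave a background that leaves out variation from capture and elution. In every library the RNA had first been exposed to HEEB, a biotin-carrying alcohol, and to ADPRC, the cyclase that exchanges it onto NAD. By the study's methods, bound RNA was displaced from the beads with free biotin, treated with NudC, and exposed to streptavidin again so that RNA still carrying biotin was removed before polyA selection. Any effect of that second capture cannot be told apart from that of the enzyme.

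An NAD cap is a nicotinamide adenine dinucleotide at the first position of an RNA, where most polymerase II transcripts carry a 7-methylguanosine (m7G) cap. NudC is a bacterial Nudix hydrolase that cuts the pyrophosphate inside NAD and leaves the triphosphate bridge of an m7G cap uncut. The comparison asks which RNA classes take a different part of the sequenced eluate once NudC is used. A share is relative: a class can lose share because less of it was recovered or because other RNA was recovered more, and these cannot be told apart in counts.

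Several loci with large falls were short, repetitive or both, and their sequences are shown because shared sequence bears on the assignment of counts to a locus. Flanking sequence, which read pairs can also cover, was not examined. Gm23935, Gm24270 and Gm24187 are annotated by GENCODE M21 as miRNA genes of 57 bases on GRCm38, at chr16:11144125-11144181, chr9:56223715-56223771 and chr13:9834469-9834525. Gm23935 and Gm24270 have the same sequence, and Gm24187 differs by the substitution G11A, counted from 1 at the 5′ end with the base of Gm23935 first. The capital marks that position.
Gm23935: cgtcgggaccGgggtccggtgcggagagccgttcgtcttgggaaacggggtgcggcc
Gm24270: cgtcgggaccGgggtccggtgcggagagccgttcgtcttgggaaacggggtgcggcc
Gm24187: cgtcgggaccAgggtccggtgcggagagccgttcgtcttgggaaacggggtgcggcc

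Mir6236 on chromosome 9 was the gene with the largest fall among those named here. Its mature sequence in RefSeq (GRCm38.p6) is shown with the seed, bases 2 to 8, in capitals. A polyA library of read pairs does not measure the mature miRNA, and the counts belong to the gene interval at chr9:110281287-110281409.
Mir6236: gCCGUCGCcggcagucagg

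The satellite-like genes are a fixed list, typed as protein-coding by GENCODE M21 and named here for sequence like that of satellite repeats. They lie on chromosomes 2, 9 and 14. Of 7 such genes compared, Gm10800, Gm10801, Gm21738, Gm10718, Gm10722, Gm10717 and Gm11168, all carried one common stretch of 42 bases, and this stretch is in capitals in the transcript windows of the 3 with the most counts. Gm10800 lies at chr2:98666547-98667301 on the minus strand, Gm10801 at chr2:98662237-98664083 on the plus strand, and Gm21738 at chr14:19415857-19418930 on the minus strand.
Gm10800: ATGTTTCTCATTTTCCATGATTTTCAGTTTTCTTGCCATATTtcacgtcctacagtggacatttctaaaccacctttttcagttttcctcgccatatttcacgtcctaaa
Gm10801: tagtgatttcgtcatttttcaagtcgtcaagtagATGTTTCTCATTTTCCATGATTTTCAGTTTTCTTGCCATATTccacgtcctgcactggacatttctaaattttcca
Gm21738: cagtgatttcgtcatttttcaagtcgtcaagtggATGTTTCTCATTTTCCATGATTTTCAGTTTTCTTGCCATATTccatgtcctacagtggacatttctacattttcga

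The 4 eluates held 7785525 to 8725646 counted read pairs each, and the 4 inputs 7242321 to 7845885. The 10 genes with the most counts took 20.86% to 26.04% of the counts of an eluate. The replicate numbers marked distinct material: Mup7, a major urinary protein gene, was at 4597 and 4022 CPM (counts scaled to the total of the library) in the NudC- and NudC+ eluates of replicate 1, and at 36.8 and 31.2 CPM in those of replicate 2. Within the NudC- arm 3881 genes differed by at least 2-fold between the replicates, and within the NudC+ arm 3514 genes did. Nothing in the sources states that the replicates are separate animals, so the p-values do not measure variation among mice. Those of edgeR rest on a spread shared over genes, not on each gene's own spread between the 2 replicates. The liver label fitted the marker genes: the 5 hepatocyte markers, Alb, Apoa1, Ttr, Cps1 and Hnf4a, took 5.53% to 6.34% of the eluates' counts, the 9 Kupffer cell markers 0.0262% to 0.0499%, and the 5 lymphocyte markers at most 0.00189%. None of the hepatocyte, Kupffer cell, sinusoidal endothelium, stellate cell, cholangiocyte, lymphocyte or neutrophil markers differed between the arms at an adjusted p under 0.05 by edgeR with the replicate number as a block, while 2 of the 5 erythroid markers, Hbb-bt and Hbb-bs, were lower with NudC. DESeq2 with the block also called Hbb-bt and Hbb-bs (adjusted p = 0.0419 and 0.0481), while edgeR with scaling by library size alone did not (adjusted p = 0.0661 and 0.189). At an unadjusted p under 0.05 edgeR had 2 of the 5 hepatocyte, 1 of the 9 Kupffer cell, 2 of the 7 endothelium, 1 of the 7 stellate cell and 1 of the 4 neutrophil markers, and 0 of the cholangiocyte and lymphocyte markers, while DESeq2 with the block called 0 in each of these lists. The part of red cells in the results was not tested.

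Protein-coding genes took most counts in every library and a larger share with NudC than without it in both replicates. Their share was 95.4% and 91.6% in NudC- replicates 1 and 2 and 95.8% and 94.3% in NudC+ replicates 1 and 2. The gain was 0.415 percentage points in replicate 1 and 2.71 in replicate 2, while the inputs differed between arms by a ratio of 1.00 in both replicates. The arms overlapped, since NudC- replicate 1 was above NudC+ replicate 2. With satellite-like and rRNA-like genes taken out of the total, the mean log2 ratio of the protein-coding share went from 0.024 to 0.008. The rRNA-like genes differed by -0.119 points in replicate 1 and -2.02 in replicate 2, and processed pseudogenes by -0.238 and -0.559.

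Processed pseudogenes, gene copies made by reverse transcription of an mRNA, lost share in both replicates. They took 2.87% and 3.50% of counts in the NudC- eluates and 2.63% and 2.94% in the NudC+ eluates, a ratio of 0.917 in replicate 1 and 0.840 in replicate 2. All 4 values stood above the inputs, at 1.75% to 1.79%. When counts were divided by exon length before shares were taken, the mean log2 ratio went from -0.188 to -0.024. Every class moved upward under this division, protein-coding genes from 0.024 to 0.157 and other pseudogenes from 0.099 to 0.272. Processed pseudogenes thus stayed under both. Reads of a processed pseudogene and of its parent mRNA are alike, and the counting kept only reads placed once, so the split between them is uncertain.

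Satellite-like genes lost about the same part of their share in both replicates. Their share was 0.0237% and 0.0384% in the NudC- eluates and 0.0106% and 0.0188% in the NudC+ eluates. The Wilson 95% intervals, which cover counting error only, were 0.0227% to 0.0247% and 0.0371% to 0.0398% without NudC, and 0.00997% to 0.0114% and 0.0179% to 0.0198% with it. Every NudC+ value was under every NudC- value, and the ratio was 0.450 in replicate 1 and 0.489 in replicate 2. The mean log2 ratio was -1.09 (SD 0.0857, n = 2 pairs). A permutation test of 2 against 2 libraries cannot give an exact two-sided p under 0.333, so the class shares carry no test.

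The inputs bear on the satellite-like class in one place. Its share was 0.000428%, 0.000715% and 0.000701% in 3 inputs, and 0.00561% in the input of NudC+ replicate 1, which stood apart. With the mock eluates set over their inputs, the class was 55.3-fold and 53.7-fold higher. With NudC the same ratio was 26.8-fold in replicate 2, and 1.90-fold in replicate 1, where the input itself was high. The source of the satellite counts in that input was not tested.

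The rRNA-like genes lost share in both replicates, but by very different amounts. They took 0.6001% and 3.11% of counts in the NudC- eluates and 0.482% and 1.08% in the NudC+ eluates. The ratio was 0.802 in replicate 1 and 0.349 in replicate 2. The NudC- eluate of replicate 2 stood apart from the other 7 libraries, whose highest value was 1.08%. Small non-coding RNA genes followed the same libraries, with 0.0441% and 0.236% without NudC and 0.0323% and 0.0645% with it. In both classes the arms overlapped. The small non-coding class followed 3 loci, Mir6236, Gm24270 and Gm24187, of which Gm24270 has the same sequence as Gm23935 of the rRNA-like list. They held 3172 of 3848 and 17517 of 18822 counts of the class in the NudC- eluates. All other small non-coding genes summed to 676 and 1305 counts without NudC and to 759 and 1162 with it, and the median log2 fold change over the 101 tested was 0.04.

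Long non-coding RNA stood at 0.820% and 1.17% without NudC and 0.779% and 1.17% with it. Other pseudogenes stood at 0.150% and 0.178% without NudC and at 0.152% and 0.202% with it. TEC loci, transcribed regions that the annotation still holds for experimental testing, were small and higher with NudC in both replicates, at 0.0324% and 0.0581% without it and 0.0369% and 0.0683% with it. Each of these classes differed by more between replicate numbers than between arms.

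**Figure D1:**
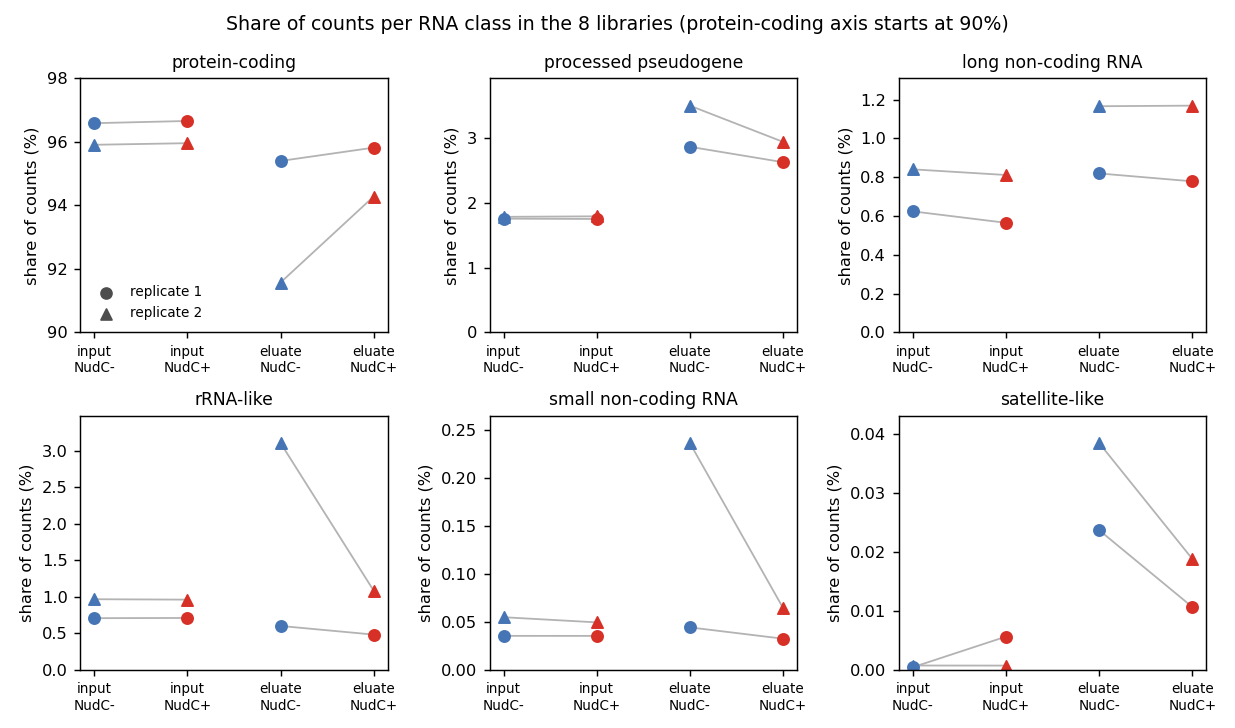
Share of all counts (%, y axis) for 6 RNA classes in the 4 inputs and 4 eluates, with circles for replicate 1, triangles for replicate 2, blue for NudC-, red for NudC+ and a grey line joining the libraries of one replicate number; the protein-coding axis starts at 90%. The satellite-like eluate shares fall by similar ratios, 0.450 and 0.489, while the rRNA-like fall rests mostly on the high NudC- eluate of replicate 2 at 3.11%.

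Gene by gene, 17325 genes were tested with edgeR's quasi-likelihood test, blocked on replicate number, and a gene was called at an adjusted p under 0.05. The SE printed with a log2 fold change comes from this test. It does not measure how far a gene's 2 replicate pairs lie apart. The arms differed at 745 genes (4.30% of those tested, with 2413 at an unadjusted p under 0.05), of which 274 (1.58%) were higher and 471 (2.72%) lower with NudC. Only 60 called genes differed by at least 2-fold, 26 higher and 34 lower, and 743 of the 745 moved the same way in both replicates. The same test of the inputs, which had no capture or elution step, called 10 genes (0.0577%). That count does not measure how far separate captures differ. With the input difference subtracted in one model of 8 libraries, 499 genes (2.88%) were called, and 401 of the 745 were called there with the same sign. The calls rest on the pairing. Without the replicate block edgeR called 0 genes, with 236 at an unadjusted p under 0.05, DESeq2 called 255 with the block (45 higher, 210 lower), and DESeq2 called 0 without it, with 82 at an unadjusted p under 0.05. Scaling by library size alone left 312 calls, of which 57.4% were higher with NudC against 36.8% in the fit with TMM scaling, and the all-gene median, 0.02 on the log2 scale with TMM, was then 0.13.

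Single libraries also decided counts. Leaving one out was possible only in a fit of all 8 libraries with one replicate block, which called 440 genes with every library in. It called 251 without NudC+ replicate 1, 4 without NudC+ replicate 2, 592 without NudC- replicate 1 and 119 without NudC- replicate 2. In the same kind of fit the difference from input was called at 59 genes, and at 16 without the NudC+ input of replicate 1.

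By class, 263 protein-coding genes were higher (1.92%) and 361 lower (2.63%) of 13706 tested, near the 1.58% and 2.72% of all genes tested. Processed pseudogenes were nearly one-sided, with 73 lower (5.75%) and 2 higher (0.158%) of 1269 tested. Their median log2 fold change was -0.14, against 0.02 over all genes tested. Of 1541 long non-coding RNA genes, 9 were higher (0.584%) and 25 lower (1.62%), both under the all-gene shares, with a median of 0.00. None of 449 TEC loci was called by edgeR, with 21 at an unadjusted p under 0.05, or by DESeq2 with the block. Of 101 small non-coding RNA genes, 4 were lower (3.96%, against 2.72% of all genes tested).

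The satellite-like list held 12 genes, and 5 passed the filter, which dropped any gene absent from over 25% of the experiment's 8 libraries. Gm10800 carried most of the counts, with 1662 and 2467 in the NudC- eluates and 749 and 1159 in the NudC+ eluates, so the arms did not overlap. It fell by 1.21 on the log2 scale (SE 0.10, adjusted p = 7.49e-29 by edgeR), and it also passed DESeq2 with the block (adjusted p = 5.54e-15). Its inputs held 23, 47 and 47 counts in 3 libraries and 331 in the input of NudC+ replicate 1, so it was called higher in the inputs, by 2.20.

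Gm10801 went from 154 and 234 counts to 68 and 107, a log2 fold change of -1.24 (SE 0.21, adjusted p = 6.90e-07), and Gm21738 from 133 and 195 to 54 and 94, a log2 fold change of -1.25 (SE 0.23, adjusted p = 4.01e-06). Both were lower in each NudC+ eluate than in either NudC- eluate, and DESeq2's filter on low counts left them without an adjusted p. Gm10718 stood at 53 and 60 counts against 19 and 48, and Gm10722 at 22 and 41 against 12 and 27, and neither was called (adjusted p = 0.106 and 0.418). Of the 7 members under the filter, Gm11168 and Gm10717 had the most counts, with 18 and 21 against 2 and 8, and 14 and 28 against 8 and 18, while Gm10721 had 0 counts throughout. The members compared share the 42-base stretch shown above, and how well read pairs tell single members apart was not tested.

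The rRNA-like list held 6 annotated genes, 4 of which passed the filter, and all 4 were called lower with the block. CT010467.1, an rRNA gene on chromosome 17, was at 3422 and 17946 CPM without NudC and at 2551 and 6636 CPM with it. Gm23935 stood at 2282 and 11637 CPM without NudC and at 1814 and 3518 CPM with it. Gm15564, a locus on chromosome 16, stood at 15.0 and 119 CPM and at 12.8 and 29.5 CPM. In all 3 the NudC- eluate of replicate 2 was far above the other 3 eluates.

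Gm26917, a lincRNA gene next to CT010467.1, did not share a direction between replicates. It was at 282 and 1377 CPM without NudC and at 437 and 658 CPM with it, which is 0.55 higher in replicate 1 and 1.22 lower in replicate 2 on the log2 scale. Its log2 fold change of -0.35 (SE 0.09, adjusted p = 0.00415) therefore rests on replicate 2. The median of the 4 rRNA-like genes was -0.35 in replicate 1 and -1.73 in replicate 2, and DESeq2 with the block called none of them (adjusted p from 0.222 to 0.841). Gm42418 and AY036118 had 0 counts in every library. Both overlap CT010467.1 on the annotation, and 97.6% of the 20-base words of Gm42418 and all 904 of AY036118 occur in it on one strand or the other.

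A further 4 genes followed the rRNA-like genes across the eluates. Mir6236 was at 247.5 and 1613 CPM without NudC and at 158.9 and 330.5 CPM with it, a log2 fold change of -1.60 (SE 0.09, adjusted p = 3.04e-63). Lars2, which encodes the mitochondrial leucyl-tRNA synthetase, was at 1332 and 6948 CPM and then at 866 and 1917 CPM, a log2 fold change of -1.36 (SE 0.07, adjusted p = 1.64e-72). Gm24270 and Gm24187, the 57-base genes shown above, had log2 fold changes of -1.41 and -1.29. In each of them the fall was larger in replicate 2, at -2.44, -2.01, -1.96 and -2.01, than in replicate 1, at -0.71, -0.70, -0.76 and -0.28 in the same order, and DESeq2 called none of them (adjusted p from 0.124 to 0.403). Lars2 shared 33 words of 20 bases with Gm15564 and none with the other rRNA-like genes. The 4 rRNA-like genes that passed the filter shared none with one another either. Rn18s, Rn28s1 and Rn45s were not matched in the counts and were not compared, so whether Lars2 holds rRNA sequence was not tested.

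**Figure D2:**
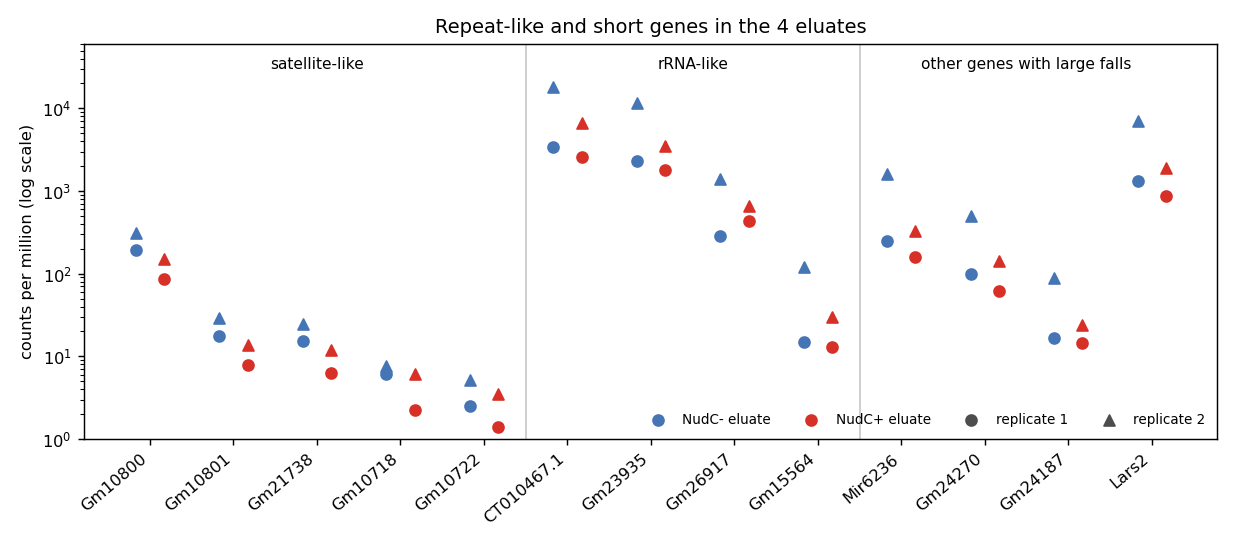
CPM (y axis, log scale) in the 4 eluates for the 5 satellite-like and 4 rRNA-like genes that passed the filter and for 4 other genes with large falls; blue NudC-, red NudC+, circles replicate 1, triangles replicate 2. Gm10800, Gm10801 and Gm21738 fall by a similar distance in both replicates. The blue triangles of CT010467.1, Gm23935, Gm15564, Mir6236, Gm24270, Gm24187 and Lars2 stand far above the other 3 points of each gene. Gm26917 is higher with NudC in replicate 1 and lower in replicate 2.

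The mRNAs of ribosomal proteins, which build the cytosolic ribosome, were called lower in 33 of 82 tested genes (40.2%, against 2.72% of all genes tested) and higher in none, with a median log2 fold change of -0.30. Together they took 1.56% and 2.24% of counts without NudC and 1.35% and 1.74% with it. Rps27l, a paralog of Rps27, was at 1864 and 2460 CPM without NudC and at 1294 and 1321 CPM with it, a log2 fold change of -0.83 (SE 0.08, adjusted p = 7.83e-25). Rps25, a small-subunit protein, went from 694 and 1292 CPM to 524 and 816 CPM, and Rpl32, a large-subunit protein, from 1119 and 2011 CPM to 918 and 1351 CPM. For Rps27l all NudC+ values were under all NudC- values, while for Rps25 and Rpl32 the arms overlapped and only the pairs were ordered. The input median of the list was 0.02. DESeq2 with the block called 18 of the 82, and scaling by library size alone left 14. Calls rose with depth. Of 859 protein-coding genes averaging 1000 to 10000 counts in the eluates, 18.6% were called lower and 7.68% higher. Neither this list nor those below were matched for depth.

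Ribosomal protein pseudogenes had 16 called lower of 88 tested (18.2%, against 2.72% of all genes), none higher, and a median of -0.35. Only 8 were called by DESeq2 with the block and 5 under library-size scaling. Rpl34-ps1, of the Rpl34 family, was at 280.2 and 464.2 CPM without NudC and at 229.8 and 273.8 CPM with it, a log2 fold change of -0.64 (SE 0.09, adjusted p = 2.43e-09), though DESeq2 did not call it (adjusted p = 0.147). Rps16-ps2 was at 505 and 944 CPM and then at 473 and 712 CPM, a log2 fold change of -0.37 (SE 0.08, adjusted p = 0.00102), a call lost by DESeq2 (adjusted p = 0.0504) and by library-size scaling (adjusted p = 0.226). Rpl10a-ps1 missed the threshold (log2 fold change -0.28, SE 0.09, adjusted p = 0.0555). Named pseudogenes of other families had 4 lower (2.34%) and 1 higher (0.585%) of 171 tested, no more than the 2.72% and 1.58% of all genes. Gpx4-ps2, at -0.41, and Tpt1-ps3, at -0.25, were not called by library size alone (adjusted p = 0.132 and 0.511), nor was Tpt1-ps3 by DESeq2 (adjusted p = 0.124). Gm9354, a processed pseudogene of 468 bases, was at 8.48 and 9.91 CPM without NudC and at 4.19 and 3.34 CPM with it, so its arms did not overlap.

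The nuclear-encoded subunits of the respiratory chain and ATP synthase, which carry electrons and make ATP in mitochondria, were called lower in 35 of 93 tested genes (37.6%, against 2.72% of all genes) and higher in none. Of these, 26 were called by DESeq2 with the block and 15 under library-size scaling. The list took 4.01% and 4.60% of counts without NudC and 3.49% and 3.69% with it, all above the inputs at 1.52% to 1.58%. Ndufa4, a subunit bound to cytochrome c oxidase, was at 3078 and 3488 CPM without NudC and at 2134 and 1976 CPM with it. It fell by 0.79 on the log2 scale (SE 0.07, adjusted p = 1.60e-25), and its arms did not overlap. Atp5j, a stalk subunit of ATP synthase, was at 1757 and 2117 CPM and then at 1229 and 1276 CPM, again without overlap. Uqcrq, of complex III, was called at -0.36 but not under library-size scaling (adjusted p = 0.150), and Cox6a1, of complex IV, was not (log2 fold change -0.10, SE 0.07, adjusted p = 0.595).

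Ndufb1-ps, annotated as a non-coding RNA from a bidirectional promoter, moved with these subunits. It was at 759 and 1017 CPM without NudC and at 517 and 478 CPM with it, while its inputs were at 52.0 to 57.2 CPM. Its log2 fold change was -0.94 (SE 0.08, adjusted p = 7.59e-25). The share of that annotation type went from 0.0915% and 0.124% to 0.0670% and 0.0731%, although only 1 of its 86 tested genes was called. Mitochondrial ribosomal proteins were called lower in 15 of 77 (19.5%, against 2.72% of all genes) and higher in none. DESeq2 with the block called 5, and library-size scaling 2 with a list median of -0.03. One of those lower was Mrps14, at 189 and 168 CPM without NudC and 131.0 and 106.9 CPM with it.

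Transcripts that host small nucleolar RNAs in their introns were called lower in 5 of 12 tested genes (41.7%, against 2.72% of all genes), with 2 called by DESeq2 with the block and 1 by library-size scaling. Snhg8 was at 80.5 and 194 CPM without NudC and at 58.0 and 110.1 CPM with it, a log2 fold change of -0.77 (SE 0.11, adjusted p = 1.15e-09), and Gas5 had a log2 fold change of -0.51, which library-size scaling did not call (adjusted p = 0.0603). Translation factors and other mRNAs with a terminal oligopyrimidine start, a sequence class they share with ribosomal protein mRNAs, had 0 called of 16 by edgeR, with 5 at an unadjusted p under 0.05, and 0 by DESeq2 with the block. Eef1a1, the elongation factor that brings tRNA to the ribosome, had a log2 fold change of -0.03 (SE 0.07).

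Nuclear-retained long non-coding RNAs had 2 of 7 tested members higher with NudC (28.6%, against 1.58% of all genes). Neat1, the scaffold of paraspeckles, was at 369 and 719 CPM without NudC and at 509 and 1075 CPM with it, a log2 fold change of 0.41 (SE 0.08, adjusted p = 1.33e-04). Malat1, a speckle RNA, was at 223 and 1008 CPM and then at 351 and 1151 CPM, a log2 fold change of 0.30 (SE 0.09, adjusted p = 0.0143). Malat1 was 0.58 higher in replicate 1 and 0.04 higher in replicate 2 on the log2 scale. Its inputs also differed, by -0.64, and it was not called by DESeq2 with the block (adjusted p = 0.534) or by library-size scaling (adjusted p = 0.0515), whereas Neat1 was (adjusted p = 0.00516). The arms overlapped for both genes.

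Major urinary proteins, pheromone carriers secreted by the liver, were called lower in 9 of 19 tested genes (47.4%, against 2.72% of all genes) with a median of -0.40. DESeq2 with the block called 4 and library-size scaling 0. Mup3 was at 16522 and 4465 CPM without NudC and at 13178 and 3808 CPM with it, a difference between arms smaller than that between replicates.

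**Figure D3:**
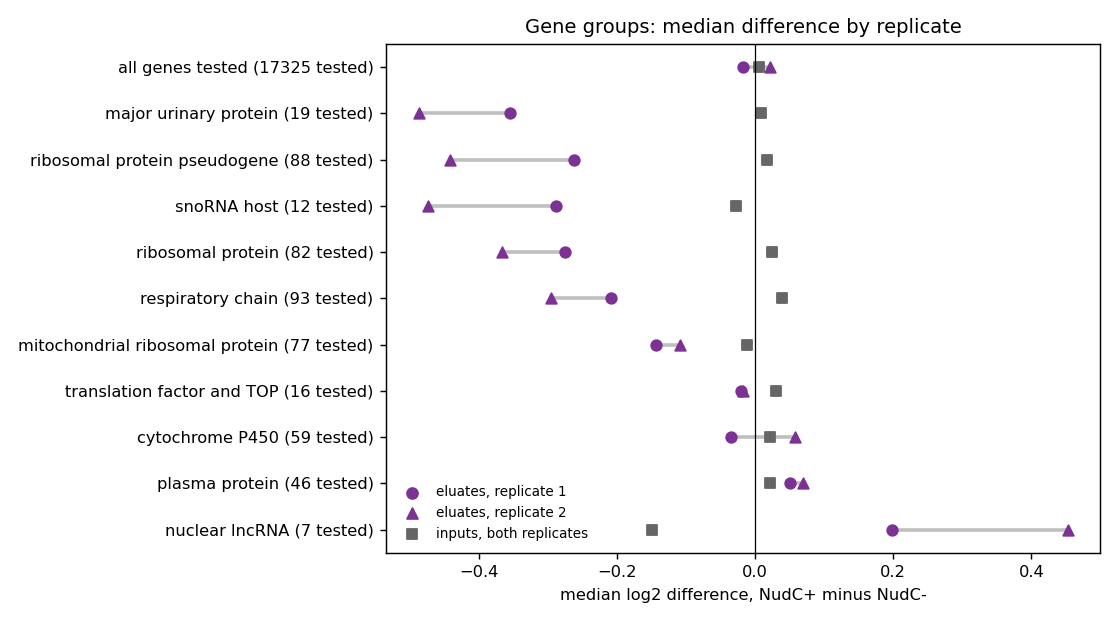
Median log2 difference, NudC+ minus NudC- (x axis), over the tested members of 10 gene groups and over all 17325 genes; purple circles and triangles are the eluates of replicates 1 and 2, grey squares the inputs. Ribosomal protein genes sit at -0.27 and -0.37 in the 2 replicates and the nuclear lncRNA group at 0.20 and 0.45, while the input squares of all groups but the nuclear lncRNA one lie near 0.

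Plasma protein genes, the main secreted products of hepatocytes, were split, with 4 higher and 4 lower of 46 tested (8.70% each, against 1.58% and 2.72% of all genes). Among protein-coding genes averaging 1000 to 10000 counts in the eluates, 7.68% were higher and 18.6% lower. The list was not matched for depth. Of the plasma protein genes, DESeq2 with the block called 0 and 1, and library-size scaling 4 and 2. They took 25.4% and 29.6% of counts without NudC and 25.8% and 29.6% with it. Apoa2, a short apolipoprotein mRNA and the gene with the most counts in 3 of the 4 eluates, was at 54850 and 91312 CPM without NudC and at 44866 and 66813 CPM with it. It fell by 0.48 on the log2 scale (SE 0.04, adjusted p = 7.66e-27). Apoe, a lipoprotein ligand for liver uptake, rose from 38171 and 48053 CPM to 45882 and 62743 CPM, a log2 fold change of 0.21 (SE 0.04, adjusted p = 1.74e-04). In both genes the arms overlapped and the pairs were ordered, and DESeq2 called neither (adjusted p = 0.206 and 0.176). Albumin (Alb) and Apoa1 were not called, with log2 fold changes of -0.08 (SE 0.05) and -0.03 (SE 0.05).

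Mgst1, a microsomal glutathione transferase, was at 20566 and 15402 CPM without NudC and at 18083 and 13421 CPM with it, a log2 fold change of -0.31 (SE 0.05, adjusted p = 9.66e-07), a call that ended under library-size scaling (log2 fold change -0.19, adjusted p = 0.159). Cytochrome P450 genes, which oxidize drugs and steroids, had 2 higher (3.39%) and 3 lower (5.08%) of 59 tested, against 1.58% and 2.72% of all genes, and library-size scaling left 1 and 0. A further list held targets of the study's qRT-PCR assays, which were made on livers of 2-month mice. It also held Gstm1, which the study's text does not name as a target. The list mixed candidates for an NAD cap with Serpina1e and Fgb, which served as controls. Of its 9 matched genes 3 were lower (33.3%, against 2.72% of all genes), Atp5k at -0.63, Akr1c13 at -0.34 and Cyp3a11 at -0.26. Akr1c13 and Cyp3a11 were not called by DESeq2 with the block (adjusted p = 0.111 and 0.105) or by library-size scaling (adjusted p = 0.348 and 0.485).

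When calls were limited to genes averaging 50 or more counts over the eluates and moving one way in both replicates, the 10 largest rises came from genes that were scarce in the NudC- eluates, with 22 to 116 counts a library. Fbxl19, an F-box protein that binds unmethylated CpG DNA, was at 2.52 and 3.64 CPM without NudC and at 6.75 and 11.8 CPM with it, a log2 fold change of 1.45 (SE 0.33, adjusted p = 7.32e-04). Gtf2a1, a subunit of the general transcription factor TFIIA, was at 4.58 and 4.89 CPM and then at 12.1 and 12.5 CPM, a log2 fold change of 1.26 (SE 0.28, adjusted p = 6.02e-04). In both genes every NudC+ value was above every NudC- value. Their inputs were at 7.04 to 12.1 CPM for Fbxl19 and at 21.1 CPM or more for Gtf2a1.

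Hexdc, a hexosaminidase, Exoc3l2, an exocyst-like protein, and Cul9, a cullin, rose by 1.25, 1.22 and 1.01 on the log2 scale. Fam43a, Cdk20, Crtc3, B4galt3 and Cntrob completed the 10 largest rises, at 1.05 to 1.16. DESeq2's filter on low counts left all 10 without an adjusted p, and library-size scaling kept all but B4galt3 (adjusted p = 0.0541). Among the falls outside the repeats, Atm, the kinase that signals DNA breaks, was at 21.3 and 26.7 CPM without NudC and at 3.61 and 19.65 CPM with it, so that its size rested on replicate 1, and Fam45a was at 14.7 and 10.7 CPM and then at 8.73 and 3.34 CPM.

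**Figure D4:**
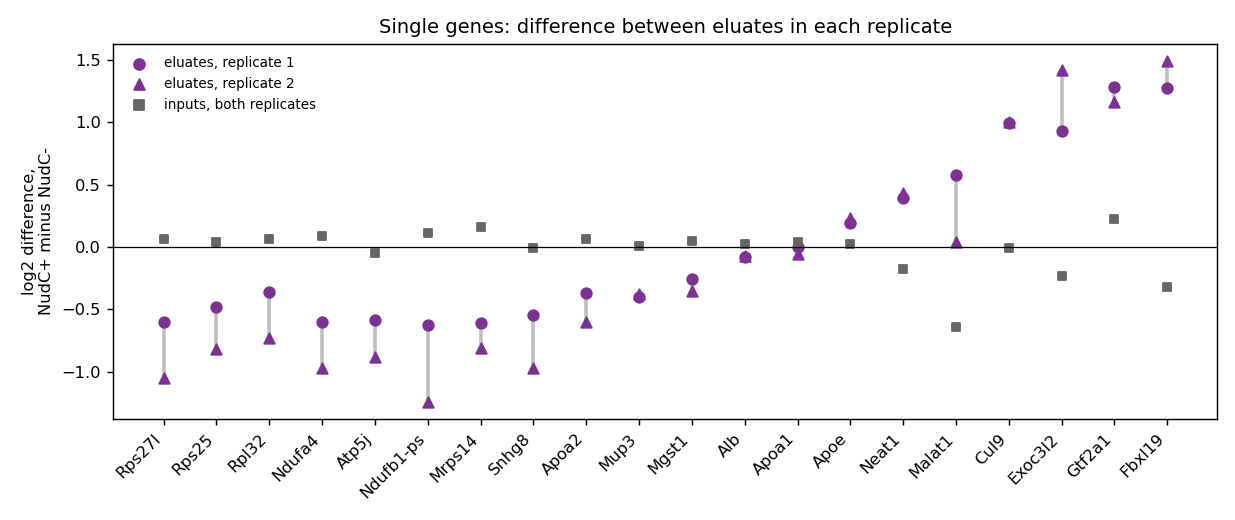
Log2 difference, NudC+ minus NudC- (y axis), for 20 genes named in the text; purple circles and triangles are the eluates of replicates 1 and 2 and grey squares the fitted input difference. The ribosomal protein and respiratory chain genes lie under 0 in both replicates, Fbxl19 at 1.27 and 1.49 above it, and Malat1 spans 0.04 to 0.58 with an input difference of -0.64.

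Protein-coding genes called higher were richer in GC than those called lower. Genes called higher had a median GC of 56.3% (n = 263), genes called lower 44.9% (n = 361), and all tested protein-coding genes 49.9%. The median log2 fold change went from -0.30 for transcripts of at most 40% GC, through -0.18, -0.04, 0.11 and 0.22 in the bins between, to 0.23 for those over 60%. Both replicates showed it, from -0.24 to 0.15 in replicate 1 and from -0.30 to 0.29 in replicate 2. The inputs went from -0.02 to 0.04. Among genes with 2000 to 4000 bases of exon the order was the same, from -0.41 to 0.24.

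Genes called lower were also shorter. Protein-coding genes called lower had a median exon length of 1987 bases, against 4393 bases for those called higher and 4365 over all. Of the 34 protein-coding genes with at most 500 bases of exon, 13 (38.2%) were called lower, and of 304 with 500 to 1000 bases, 65 (21.4%), with none called higher in either bin. Their median log2 fold changes were -0.32 and -0.28, and the median was 0.06 at 2000 to 4000 bases and -0.02 over 8000. The inputs went slightly the other way, from 0.09 in the shortest bin to -0.01 in the longest. Within 45% to 50% GC the bin of 500 to 1000 bases, of 68 genes, had a median of -0.34, while the 8 genes of at most 500 bases had one of -0.07, at -0.32 in replicate 1 and -0.005 in replicate 2. Ribosomal protein and respiratory chain mRNAs are short as a rule, and the part of length and GC in their falls was not tested.

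**Figure D5:**
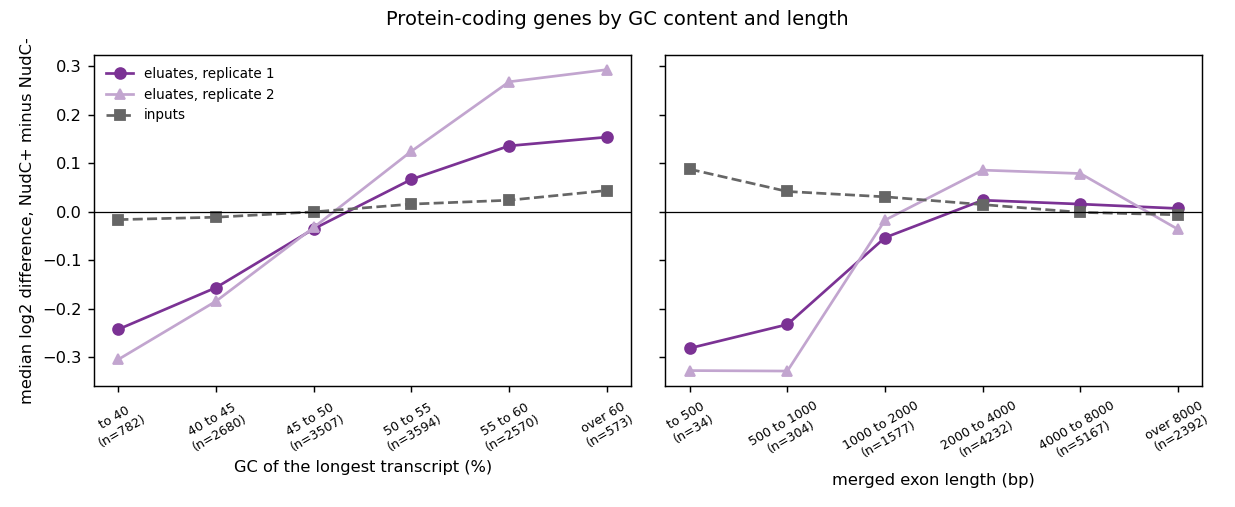
Median log2 difference, NudC+ minus NudC- (y axis), of tested protein-coding genes in bins of GC content (left) and merged exon length (right), with the number of genes under each bin; purple lines are the eluates of the 2 replicates and the grey dashed line the inputs. The eluate lines climb with GC from -0.24 and -0.30 to 0.15 and 0.29, and lie lowest for the shortest genes.

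The base at the annotated start did not separate the calls. NAD takes the place of ATP at the first position, so an NAD cap needs an A there. Among protein-coding genes with a single RefSeq start, A stood first in 30.1% of 156 genes called higher, 31.3% of 243 called lower and 29.1% of all 8566. Annotated starts are approximate, and these shares carry no test.

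The 2-month livers of the age experiment gave a grouping of genes from other libraries. Their NudC eluates were set over their inputs, on the scale of log2(CPM + 1), and the genes of the present comparison were sorted by that ratio. Among 550 genes with a ratio of 1 to 2, 99 (18.0%) were called lower with NudC here and 5 (0.909%) higher, with a median of -0.15 in replicate 1 and -0.18 in replicate 2. Among 2650 genes with a ratio under -1, 37 (1.40%) were lower and 71 (2.68%) higher, with a median of 0.04. Calls also rose with depth, since none of 2787 protein-coding genes with a mean of at most 10 counts was called while of 99 with over 10000 counts 10 were higher and 31 lower.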

How the data were processed

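Polyadenylated RNA of mouse liver was sequenced in pairs. Per the labels and the study's methods, the authors trimmed reads with Trim Galore, aligned them to GRCm38 with STAR and counted read pairs per GENCODE M23 gene with featureCounts, without strand and without multi-mapping reads. The deposited values are raw counts. Gene types, lengths and GC came from GENCODE M21, in which 181 of 55335 identifiers were not found. The table holds 4 further columns that match no sample, and they were not used.

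A gene was dropped if over 25% of the 8 NudC libraries had no count of it, and 17325 genes were tested with edgeR 4.0.16 in R 4.3.3 (TMM scaling, quasi-likelihood test, replicate number as a block, Benjamini-Hochberg adjustment, threshold 0.05, two-sided). The code was tested on simulated data. edgeR replaced the spread of each gene by the trend over genes, and the biological coefficient of variation was 0.108 in the eluates and 0.043 in the inputs. An SE is the absolute log2 fold change divided by the square root of the test's F statistic, so it rests on that trend too. Alternatives used DESeq2 1.42.0, other scalings and filters, no block, and fits without single libraries. CPM divides a count by the library total, and values per replicate number are on a log2 scale with a prior count of 2. Totals of 7242321 to 8725646 counts make 3 counts, the floor, 0.344 to 0.414 CPM. Shares carry Wilson 95% intervals for counting error only.

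The comparison is paired by replicate number. Deviations from the group mean correlated at 0.496 between the same-numbered eluates of the arms, and at 0.490 to 0.594 over all 6 pairs of groups, above the limit of 0.1. What the number stands for is not given in the sources used here.

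Named genes were the 10 largest called changes in each direction with a mean of at least 50 counts and one direction in both replicates, the 5 genes with the most counts per group, up to 4 members with the most counts per class or list, the genes of the qRT-PCR list, and every satellite-like or rRNA-like gene that passed the filter. Mup7 and Eef1a1 fall under the list rule. The members, lists and tests were chosen with earlier results of these data known.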

Additional observations from a re-analysis of the deposited data

Results flagged for a closer look

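Gm10800 differed between eluates and inputs in its response to the arm. Its log2 difference between NudC+ and NudC- was -1.21 in the eluates and 2.20 in the inputs, and the difference of these, fitted in one model of 8 libraries, was -3.51 (SE 0.20, adjusted p = 2.44e-67 by edgeR). The input of NudC+ replicate 1 held 331 counts of it and the other 3 inputs 23, 47 and 47.

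Among libraries outside the comparison, the satellite-like share was 0.00898% in the eluate of replicate 3 of the 5% NAD-RNA spike-in group, against at most 0.00067% in the inputs of that experiment. That eluate was the highest of 12, whose median was 0.000867%. In the 8 eluates of the age experiment the satellite-like share was 0.00033% to 0.000847%. Only 5 of the 12 satellite-like genes were found in the counts of these 2 experiments. The rRNA-like share was 12.7% in the eluate of replicate 3 of the 1% NAD-RNA spike-in group, against at most 0.656% in the inputs of the same experiment. Among the 12 eluates of that experiment the rRNA-like share ran from 0.0879% upwards with a median of 0.512%, and replicates 1 and 2 of the 10% group were at 4.61% and 4.96%, all made with NudC. In the 8 eluates of the age experiment it was 0.0263% to 0.104%, under the 0.289% to 0.611% of their inputs. These libraries were counted in separate tables, and the differences were not tested.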

How the results depend on the processing

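Calls per arm are given as higher, then lower, with NudC. Against 274 and 471, the eluates gave 0 and 0 without the replicate block in edgeR and in DESeq2, 45 and 210 by DESeq2 with the block, 179 and 133 by library size alone, 127 and 313 from all 8 libraries with one replicate block, and 631 and 739 with the block within library type. Leaving out one eluate in the fit with one block gave 0 to 155 higher and 4 to 437 lower. With one replicate number alone, 776 to 1168 genes were at least 2-fold higher and 1044 to 1202 lower, without a test. DESeq2 size factors, no filter and a mean of at least 10 counts stayed within 1.5 times.

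The inputs, against 6 and 4, gave 0 and 0 without the block in both tools, 0 and 1 by DESeq2 with it, and 9 lower by library size. The eluate difference beyond input, against 129 and 370, gave 0 and 0 without the block, 5 and 54 with one block, 12 and 197 by DESeq2, 61 lower by library size, and 2 and 14 without the NudC+ input of replicate 1, an alternative chosen after seeing the data.

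Without the block every class and list had 0 calls. DESeq2 with the block gave 41 and 164 protein-coding, 0 and 38 processed pseudogene and 4 and 7 long non-coding genes, and 1 and 1 cytochrome P450 and 0 and 1 plasma protein genes. It gave 18 ribosomal protein, 8 of their pseudogenes, 5 mitochondrial ribosomal protein, 4 major urinary protein, 2 snoRNA host, 1 satellite-like and 1 qRT-PCR gene lower, 1 nuclear long non-coding RNA higher, 0 rRNA-like, small non-coding and other pseudogenes lower, and 0 other named pseudogenes higher. Library size alone gave 172 and 86 protein-coding and 1 and 29 processed pseudogene genes, 8 long non-coding, 14 ribosomal protein, 5 of their pseudogenes, 15 respiratory chain, 2 mitochondrial ribosomal protein, 2 plasma protein, 1 snoRNA host and 1 qRT-PCR gene lower, 1 cytochrome P450 and 1 nuclear long non-coding gene higher, and 0 lower among major urinary protein, cytochrome P450, erythroid, other named and other pseudogenes.

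With counts divided by exon length the mean log2 ratio of class shares was 0.157 for protein-coding genes, -0.024 for processed and 0.272 for other pseudogenes, -0.842 for satellite-like genes and 0.479 for TEC loci, and that of long non-coding RNA turned from -0.035 to 0.075. With only filtered genes TEC was at 0.278. Gm26917 was at 0.55 without replicate 2 and at -1.22 without replicate 1. The causes were not tested. With 2 libraries an arm, the adjusted p-values rest on the spread shared over genes.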
